A study of Mus musculus with 12 samples.

Results

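The 10 genes examined here encode the main parts of MHC class I antigen presentation and of the immunoproteasome: B2m, H2-K1, H2-D1, Tap1, Tap2, Tapbp, Psmb8, Psmb9, Psme2 and Nlrc5. They were chosen by name, as the rows of the normalized count table that carry these symbols, and are 10 of the 24454 genes in that table. All 10 passed the filter on low values, a mean of at least 10 normalized counts over the 12 libraries, which 11476 genes passed. The cells were leukemic blasts from mice with an acute myeloid leukemia driven by MLL-AF9. Fetal liver cells, either wild type (WT) or lacking the β isoform of STAT3 (Δβ), had been transduced with a retrovirus that also encodes the fluorophore Venus, and were transplanted into male NSG mice (NOD.Cg-Prkdc scid Il2rg tm1Wjl/SzJ) of 6–8 weeks. These hosts have no functional T, B or NK cells. Venus+ cells were sorted from the spleen (SP) and bone marrow (BM) of diseased recipients, and 3 poly-A enriched RNA libraries were sequenced per genotype and organ, so that MLL-AF9, Venus and the NSG host are shared by all 4 groups. The labels number the replicates of each group from 1 to 3. The sources used here do not say whether each library came from a separate recipient or how many fetal livers were used, so p-values measure the spread between these libraries, which may be partly technical.

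Class I molecules carry peptides of the cell's own proteins to its surface, where CD8+ T cells and NK cells read them. The proteasome cuts the peptides, the TAP transporter moves them into the endoplasmic reticulum, and there the loading complex fits them onto a heavy chain bound to β2-microglobulin. Interferons, in particular IFNγ, raise the whole chain of steps through factors such as IRF1 and the transactivator NLRC5, and exchange catalytic subunits of the proteasome for the immunoproteasome forms. Blasts of acute myeloid leukemia normally express class I, and its level affects how visible they are to T cells.

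The values are normalized counts, which are gene counts after division by a size factor for each library, from libraries of 9001051 to 13859727 reads on genes. Stat3 itself had medians of 3662 (WT SP), 2898 (Δβ SP), 2950.4 (WT BM) and 2766 (Δβ BM) normalized counts. Counts per gene do not separate the α and β transcripts, so they do not test the label of the Δβ libraries. All 8 blast markers (Hoxa9, Hoxa10, Meis1, Mpo, Ptprc, Itgam, Kit and Csf1r) passed the filter. The 4 globin genes were listed at 0 in every library. How reads with several matches were counted is not given in the sources used here, so this 0 does not show that globin RNA was absent. The summed erythroid (globin genes included), lymphocyte and stromal or endothelial markers were at most 14.9, 563 and 2525 normalized counts. The second sum came mostly from Cd79b and the last almost all from Pecam1. The T cell genes Cd3e and Cd3g had 22 and 27 reads in Δβ SP replicate 1 and 45 and 67 in Δβ BM replicate 1, against at most 10 reads of either gene in the other libraries. WT SP replicate 3 stood apart from its group, with a Pearson's r across genes of 0.897 and 0.943 to replicates 1 and 2, which reached 0.964 with each other. Δβ BM replicate 3 had an r of 0.929 and 0.955 to replicates 1 and 2 of its group, which had 0.960 with each other. No replicate pair agreed within sampling noise. Fold changes and counts of calls without WT SP replicate 3, or without Δβ replicate 3, follow the values of the single genes.

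All 10 genes had a higher mean log2 value in Δβ than in WT blasts in SP, in BM and over both organs. Over all tested genes, 48.1% in SP, 45.3% in BM and 46.5% over both organs were higher in Δβ. The median log2 fold change of the 10 genes was 0.88 in SP, 0.84 in BM and 0.82 over both organs, beside -0.01, -0.02 and -0.02 for all tested genes. None of the 10 passed an adjusted p of 0.05 in the limma test across all genes with Benjamini-Hochberg adjustment, in which 12 genes passed in SP (0.105%), 8 in BM (0.0697%) and 17 over both organs (0.148%). At an unadjusted p under 0.05, limma had 7 of the 10 higher in SP, 8 in BM and 8 over both organs, beside 5.93%, 1.25% and 3.41% of all tested genes. On the same libraries edgeR's quasi-likelihood test passed 0 of the 10 after adjustment, beside 0.0349%, 0.0697% and 0.139% of all tested genes, and had 8, 8 and 9 of them higher at an unadjusted p under 0.05, beside 6.4%, 1.55% and 4.29%. DESeq2, run on the recovered reads, passed 6 of them in SP, 1 in BM and 7 over both organs, all higher in Δβ, beside 1.25%, 0.192% and 1.04% of tested genes higher. The calls thus depended on the tool, and the values below are given library by library.

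**Figure D1:**
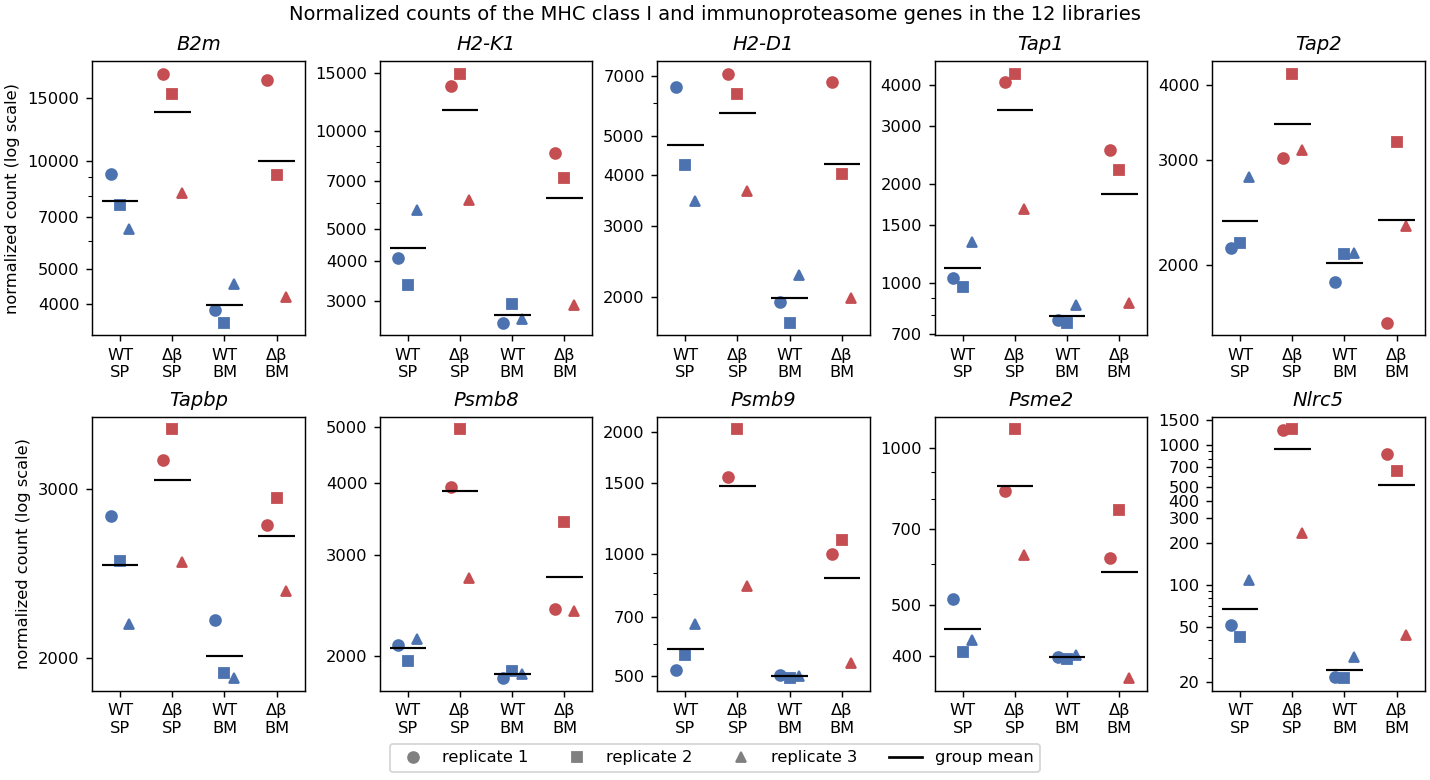
Normalized counts (log axis, a separate scale for each gene) of the 10 genes in each of the 12 libraries, by genotype and organ; symbols mark the replicate number and horizontal lines the group mean. Δβ replicates 1 and 2 lay above replicate 3 for 9 of the 10 genes in each organ, the exception being Tap2.

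Among the 10 genes, B2m had the highest level per kb of transcript and Nlrc5 the lowest, with 10289 and 55.8 normalized counts per kb over the 12 libraries. B2m encodes β2-microglobulin, the light chain that every classical class I molecule needs to reach the surface. In SP, its normalized counts in replicates 1, 2 and 3 were 9179.8, 7516 and 6476 for WT and 17496, 15385 and 8161 for Δβ. The BM values were 3845, 3549 and 4551 in WT and 16734, 9116 and 4176 in Δβ. Replicates 1 and 2 of Δβ were above every WT library of their organ, replicate 3 lay inside the WT range, and the groups overlapped in both organs. On the log2 scale B2m in Δβ exceeded WT by 0.77 (standard error [SE] 0.43, limma adjusted p = 0.409) in SP and 1.12 (SE 0.43, limma adjusted p = 1.0) in BM.

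The heavy chains H2-K1 and H2-D1 (H-2K and H-2D), which hold the peptide and are read by T cells, come next. H2-K1 had 4063, 3361 and 5699 normalized counts in WT SP and 13686, 14946 and 6124 in Δβ SP, so that every Δβ library was above every WT library. BM libraries had 2584, 2955 and 2652 in WT and 8540.1, 7183 and 2930.3 in Δβ, where replicate 3 was inside the WT range. The log2 fold change was 1.34 (SE 0.41, limma adjusted p = 0.228, DESeq2 adjusted p = 0.0177) in SP and 1.05 (SE 0.41, limma adjusted p = 1.0) in BM. H2-D1 in SP overlapped widely, with 6572, 4220.2 and 3441 normalized counts in WT and 7108, 6317 and 3659.7 in Δβ. Its BM values were 1949.8, 1730.4 and 2273 in WT and 6764, 4031 and 1993 in Δβ, again with replicates 1 and 2 above WT and replicate 3 inside its range. The H2-D1 log2 fold change was 0.26 (SE 0.41, limma adjusted p = 0.759) in SP and 0.94 (SE 0.41, limma adjusted p = 1.0) in BM. Heavy chain genes resemble each other in sequence: of all 50-base stretches of the transcript, 14.3% in H2-D1 and 8.79% in H2-K1 also occur in another gene, most often in H2-Q1 and in H2-D1, respectively, so part of their reads may be shared or lost, and how such reads were counted is not given in the sources used here. B2m shares none.

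In GENCODE M21 on GRCm38, B2m lies on chromosome 2 from 122147686 to 122153083 on the plus strand, H2-K1 on chromosome 17 from 33996017 to 34000347 on the minus strand and H2-D1 on chromosome 17 from 35262730 to 35267499 on the plus strand. Their promoters are shown because these genes make the class I molecule itself and the heavy chain pair is so alike in sequence. Each sequence holds the 250 bases before the RefSeq start site (GRCm38.p6, gene strand, 5′ to 3′), with letters in capitals where a motif matched on either strand.
B2m: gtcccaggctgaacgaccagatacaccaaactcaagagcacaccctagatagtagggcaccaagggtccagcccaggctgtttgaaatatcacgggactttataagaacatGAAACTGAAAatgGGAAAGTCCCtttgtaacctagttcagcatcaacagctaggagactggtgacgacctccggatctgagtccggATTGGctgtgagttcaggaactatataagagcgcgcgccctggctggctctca
H2-K1: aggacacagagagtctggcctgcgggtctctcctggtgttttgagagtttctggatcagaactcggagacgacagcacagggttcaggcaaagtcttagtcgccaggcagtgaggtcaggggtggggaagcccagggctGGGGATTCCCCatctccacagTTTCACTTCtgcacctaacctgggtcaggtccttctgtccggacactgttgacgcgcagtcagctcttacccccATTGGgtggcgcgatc
H2-D1: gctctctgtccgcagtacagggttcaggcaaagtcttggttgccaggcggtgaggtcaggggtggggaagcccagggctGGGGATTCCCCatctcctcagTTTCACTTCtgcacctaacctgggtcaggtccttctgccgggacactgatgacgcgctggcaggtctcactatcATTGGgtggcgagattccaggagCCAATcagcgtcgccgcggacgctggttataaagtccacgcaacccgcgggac
These stretches are chr2:122147437-122147686 on the plus strand, chr17:34000348-34000597 on the minus strand (the first of 2 RefSeq windows for H2-K1) and chr17:35262844-35263093 on the plus strand. The H2-D1 stretch lies inside the GENCODE interval of the gene, because the annotations place its start at different bases. Motif positions thus depend on the RefSeq start site used. The motifs searched on both strands of the whole window, which adds 50 bases from the start site, were the core of the interferon-stimulated response element (GAAA, any 2 bases, GAAA), the gamma-activated site (TTCNNNGAA), an NF-kB-like site (GGG, any 3 bases, T, any base, CC) and the CCAAT box (CCAAT). They occurred in 3.44%, 8.3%, 17.4% and 37.4% of the 32851 windows. B2m held the response element core at -139, an NF-kB-like match at -126 and a CCAAT box at -53, counted from the start site. The windows of H2-K1 and H2-D1 aligned without gaps over 240 bases with 73.3% identity and shared a run of 47 bases. Both hold the stretch GGGGATTCCCC, in which NF-kB-like matches on the 2 strands overlap. The plus strand match begins at -111 in H2-K1 and -171 in H2-D1, and the minus strand match at -110 and -170. A shorter interferon element, GAANNGAAA, was added after these letters had been read. It stands on the minus strand at -90 in H2-K1 and -150 in H2-D1 and is in 7.52% of all windows.

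Peptide transport was next. Tap1, 1 of the 2 chains of the peptide transporter, had 1039, 975 and 1333 normalized counts in WT SP and 4089.9, 4341 and 1685 in Δβ SP. Tap1 in BM stood at 773, 759 and 861 in WT and 2538, 2216 and 868 in Δβ. The genotypes did not overlap in either organ, although in BM replicate 3 of Δβ, at 868, was close to the highest WT library, at 861. The log2 fold change was 1.49 (SE 0.41, limma adjusted p = 0.218, DESeq2 adjusted p = 0.00491) in SP and 1.09 (SE 0.41, limma adjusted p = 1.0) in BM. Tap2, the partner chain, had 2140.2, 2179 and 2809 normalized counts in WT SP and 3025, 4187 and 3124 in Δβ SP, again without overlap. In BM the Tap2 values were 1873, 2089 and 2099 in WT and 1604, 3222 and 2331 in Δβ, with Δβ replicate 1 below all WT libraries and the other two above them. Its log2 fold change was 0.53 (SE 0.23, limma adjusted p = 0.318) in SP and 0.18 (SE 0.23, limma adjusted p = 1.0) in BM, where it was -0.062 without Δβ BM replicate 2. Per kb of transcript Tap1 was below Tap2 in WT SP (378 against 690.3 normalized counts) and above it in Δβ SP (1142 against 1001), and below it in WT BM (270.2 against 587) and Δβ BM (635 against 693).

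Tapbp encodes tapasin, which ties the transporter to empty heavy chains and edits the bound peptide. Its SP values were 2810.3, 2525 and 2168 normalized counts in WT and 3215, 3458 and 2519.5 in Δβ, with overlap. In BM the values were 2192, 1928 and 1905 in WT and 2749.6, 2936 and 2349 in Δβ, and did not overlap. The log2 fold changes, 0.29 (SE 0.15, limma adjusted p = 0.374) in SP and 0.41 (SE 0.15, limma adjusted p = 1.0) in BM, were small beside those of Tap1.

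Tap1, Tap2, Psmb8 and Psmb9 sit side by side in the class II region of chromosome 17, over 34.3 kb. Psmb9 (34181987 to 34187764, minus strand) and Tap1 (34187553 to 34197225, plus strand) are transcribed away from each other from RefSeq start sites 226 bases apart, followed by Psmb8 (34197721 to 34201454, plus strand) and Tap2 (34203527 to 34216321, plus strand). Tapbp lies on the same chromosome from 33915899 to 33929292 on the plus strand. The stretch before the Tap1 start site also holds the Psmb9 start site and is shown for that reason.
Tap1: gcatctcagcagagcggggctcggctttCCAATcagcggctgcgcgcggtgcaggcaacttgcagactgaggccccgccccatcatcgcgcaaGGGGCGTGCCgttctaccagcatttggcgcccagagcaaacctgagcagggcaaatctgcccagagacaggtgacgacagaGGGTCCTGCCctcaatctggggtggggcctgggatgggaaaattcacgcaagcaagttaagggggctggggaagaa
This is chr17:34187306-34187555 on the plus strand. It holds a CCAAT box at -222 and NF-kB-like matches at -157 and -76, which the Psmb9 window, overlapping that of Tap1 by 275 bases, holds on its other strand. Tap1 and Psmb9 exons overlap by 212 bases on opposite strands, and Tapbp, Tap2, Psmb8 and Nlrc5 overlap other annotated genes by 1053, 698, 498 and 78 exon bases. The strand setting of the count is not given in the sources used here, and without it reads in these stretches cannot be assigned to 1 of the genes. Over the 8 genes with a window (all but Tap2 and Nlrc5), 1 held the response element core, 1 the gamma-activated site (Psmb8, at -97), 5 the NF-kB-like site and 6 a CCAAT box. The windows of Tapbp and Psmb8, like that of H2-D1, lie inside the GENCODE intervals of their genes. These motif matches describe letters only and were not tested for binding.

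**Figure D2:**
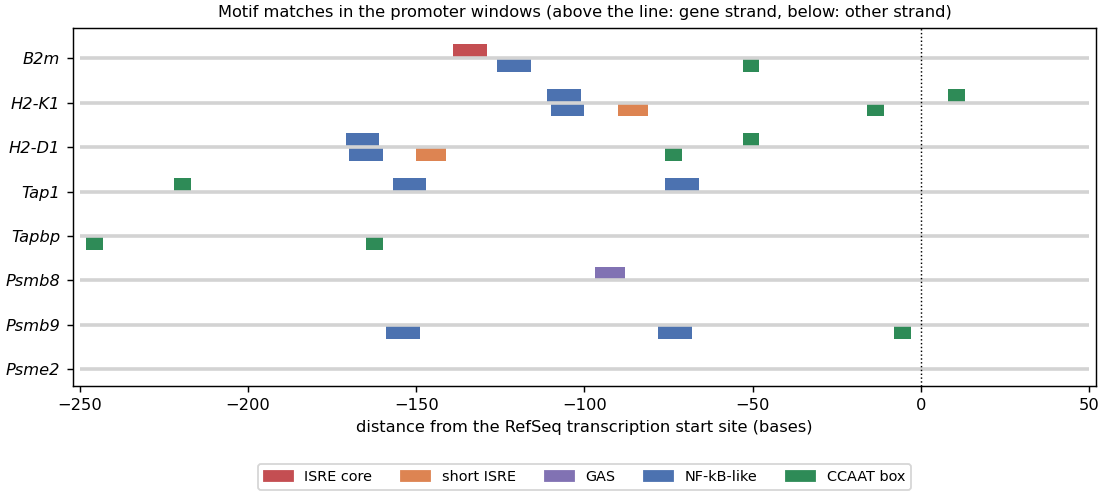
Position of each motif match in the 8 promoter windows, in bases from the RefSeq start site (dotted line); boxes above a line are on the gene's strand and boxes below on the other. B2m is the only one of the 8 with the response element core, and H2-K1 and H2-D1 carry the same NF-kB-like and short interferon element pair, shifted by 60 bases.

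Psmb8 and Psmb9 (β5i and β1i) replace the constitutive catalytic subunits Psmb5 and Psmb6 when an immunoproteasome is assembled, which favours peptides with ends that fit class I. Psmb8 had 2094, 1963 and 2144 normalized counts in WT SP and 3939, 4961 and 2738 in Δβ SP. In BM Psmb8 had 1829.7, 1886 and 1860.1 in WT and 2415, 3419 and 2394 in Δβ. No Δβ library overlapped with WT in either organ, and the 3 WT BM libraries spread by only 28.1 (SD) around a mean of 1859. Its log2 fold change was 0.87 (SE 0.20, limma adjusted p = 0.168, DESeq2 adjusted p = 0.00360) in SP and 0.54 (SE 0.20, limma adjusted p = 1.0) in BM.

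Psmb9 showed larger differences from a lower level. The SP libraries had 517, 564 and 674 normalized counts in WT and 1555, 2035 and 837 in Δβ. In BM it had 505, 495 and 502 in WT and 1001, 1084 and 539 in Δβ, so the groups were apart in both organs, with Δβ BM replicate 3 just above WT. The log2 fold change was 1.25 (SE 0.32, limma adjusted p = 0.205, DESeq2 adjusted p = 0.00394) in SP and 0.74 (SE 0.32, limma adjusted p = 1.0) in BM.

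Psme2, the β chain of the PA28 cap that opens the proteasome, is on chromosome 14 from 55587441 to 55591113 on the minus strand. Its values were 514, 407 and 428 normalized counts in WT SP and 829, 1088 and 626 in Δβ SP, without overlap. In BM they were 399, 394 and 402 in WT and 616, 762 and 363 in Δβ, where replicate 3 was below every WT library. The log2 fold change was 0.88 (SE 0.26, limma adjusted p = 0.221, DESeq2 adjusted p = 0.0312) in SP and 0.48 (SE 0.26, limma adjusted p = 1.0) in BM. Of its 50-base stretches 59.3% also occur in Psme2b, a near copy, so its count is uncertain.

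**Figure D3:**
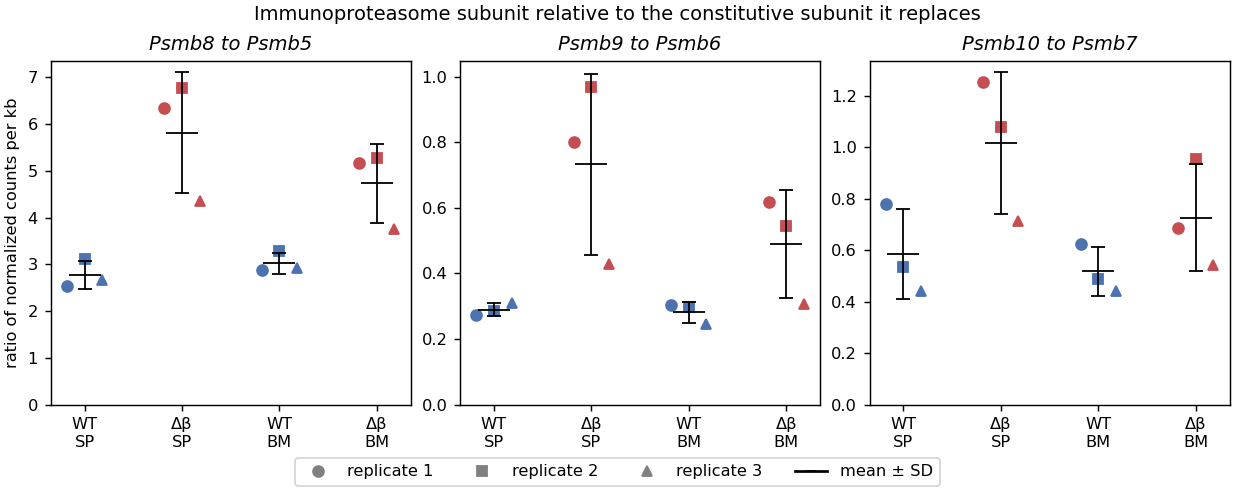
Ratio of each immunoproteasome subunit to the constitutive subunit it replaces, in normalized counts per kb of transcript, for each library (symbols) with the group mean and SD (bars). Psmb8 to Psmb5 and Psmb9 to Psmb6 were higher in all 3 Δβ than in all 3 WT libraries of both organs, while Psmb10 to Psmb7 overlapped.

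The constitutive subunits Psmb5, Psmb6 and Psmb7 gave a reference within each library, and their list had a median difference of -0.01 on the log2 scale over both organs, with 0 of 3 past limma's adjusted p of 0.05. The Psmb8 to Psmb5 ratio per kb was 2.77 ± 0.298 (SD, n = 3) in WT SP and 5.82 ± 1.29 in Δβ SP, a difference of 1.05 (SE 0.22) on the log2 scale. In BM it was 3.02 ± 0.222 in WT and 4.73 ± 0.848 in Δβ, a log2 difference of 0.63 (SE 0.17). Psmb9 to Psmb6 went from 0.289 ± 0.0194 to 0.733 ± 0.276 in SP (log2 difference 1.26, SE 0.36) and from 0.282 ± 0.0320 to 0.490 ± 0.164 in BM (log2 difference 0.74, SE 0.33). These 4 comparisons had no overlap between genotypes and a two-sided exact permutation p of 0.1, the smallest that 3 against 3 libraries allow (0.15 after Benjamini-Hochberg adjustment over the 6 ratio tests). The remaining pair, Psmb10 (β2i) to Psmb7, was 0.586 ± 0.174 in WT SP and 1.01 ± 0.276 in Δβ SP, and 0.518 ± 0.0938 in WT BM and 0.726 ± 0.209 in Δβ BM. Its genotypes overlapped in both organs (exact permutation p = 0.2, adjusted p = 0.2).

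Nlrc5, the transactivator that is recruited to class I promoters and drives B2m, the heavy chains, Tap1 and Psmb9, had the largest log2 fold change of the 10 in both organs. It lies on chromosome 8 from 94434356 to 94527272 on the plus strand. WT SP replicates had 51.3, 42.4 and 109 normalized counts and Δβ SP replicates 1287, 1299 and 235. WT BM replicates had 21.8, 21.4 and 30.2 and Δβ BM replicates 867, 647 and 43.5. All Δβ libraries were above all WT libraries of the same organ. Replicates 1 and 2 of Δβ were at 19.1 and 19.3 times the WT mean in SP and at 35.4 and 26.4 times in BM, against 3.48 and 1.78 times for replicate 3. The highest Δβ library was 5.53 times the lowest in SP and 19.9 times in BM. The log2 fold change from limma was 3.54 (SE 1.01) in both organs, with an adjusted p of 0.218 in SP and 1.0 in BM. DESeq2 gave 3.82 in SP and 4.40 in BM (adjusted p = 0.00422 and 0.00140). With a pseudocount of 0.25 the largest limma value of the 10 genes was 3.56 in SP and 3.57 in BM. The source of the gap between the tools was not tested. With 1 library left out the limma value of Nlrc5 ran from 3.13 to 4.36 in SP and from 2.75 to 4.90 in BM, highest without Δβ replicate 3 in each organ.

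**Figure D4:**
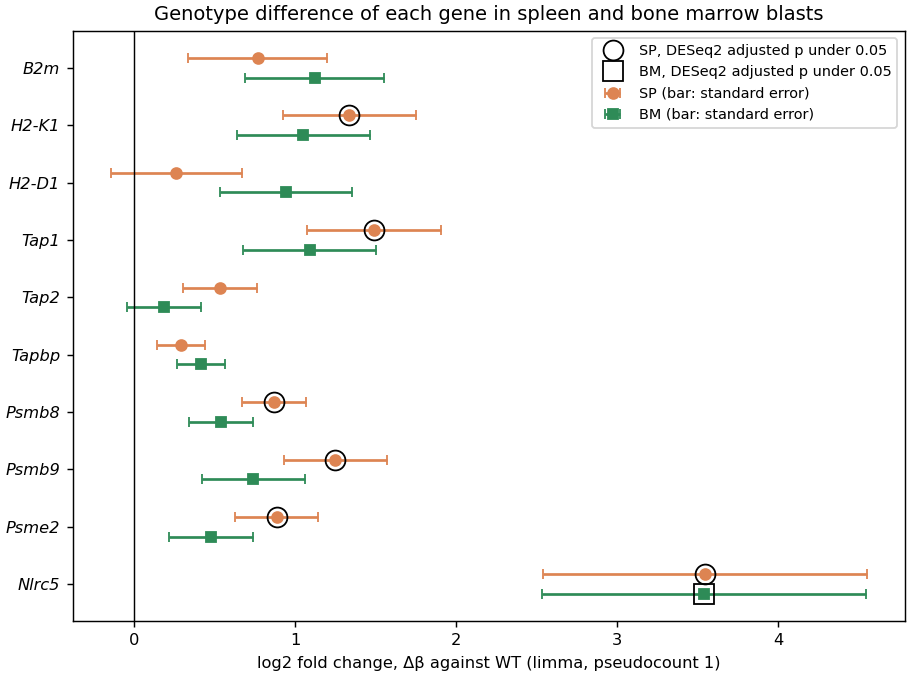
Log2 fold change of Δβ against WT for each gene in SP (circles) and BM (squares) on the log2(normalized count + 1) scale, with standard errors from limma as bars; black outlines mark an adjusted p under 0.05 from DESeq2. All 20 points lie above 0, Nlrc5 lies farthest to the right at 3.54 in both organs (3.82 and 4.40 by DESeq2), and limma passed none of them after adjustment.

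Counted by gene, 7 of the 10 did not overlap between genotypes in SP (H2-K1, Tap1, Tap2, Psmb8, Psmb9, Psme2 and Nlrc5), beside 7.92% of all tested genes without overlap and higher in Δβ. In BM 5 did not overlap (Tap1, Tapbp, Psmb8, Psmb9 and Nlrc5), beside 3.5%. Tap1, Psmb8, Psmb9 and Nlrc5 were apart in both organs, as were 0.863% of all tested genes.

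The Δβ replicates were unequal. Relative to the WT range of their organ, Δβ SP replicate 1 was above it for 10 genes, replicate 2 for 9 and replicate 3 for 7, beside 19.3%, 26% and 21% of all tested genes. In BM the counts were 9, 10 and 6, beside 29.8%, 24.9% and 26%. Replicate 3 was the lowest Δβ library for 9 of the 10 genes in SP and for 9 in BM, beside 31.5% and 35.2% of all tested genes. Averaged over the 10 genes, the deviation from each gene's mean on the log2 scale was 1.12, 1.28 and 0.22 in Δβ SP replicates 1, 2 and 3 and 0.62, 0.58 and -0.62 in Δβ BM. In WT it ran from -0.40 to -0.14 in SP and from -0.86 to -0.74 in BM. Replicate 3 thus stood nearer to WT in both organs. The sources used here do not say whether equally numbered SP and BM libraries share a recipient, so these may be 1 animal rather than a pair of observations.

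Without Δβ replicate 3 the median log2 fold change of the 10 genes went from 0.88 to 1.10 in SP, from 0.84 to 1.23 in BM and from 0.82 to 1.16 over both organs. In BM, B2m went from 1.12 to 1.64 and Psmb9 from 0.74 to 1.06, and the Psmb9 to Psmb6 log2 difference from 0.74 to 1.05. Without Δβ replicate 3 of both organs, limma passed H2-K1, Tap1, Psmb9 and Nlrc5 in SP (beside 0.2% of all tested genes) and the same 4 genes in BM (0.227%), and over both organs without Δβ replicate 3 again these 4 (0.235%). Without WT SP replicate 3, which had the highest H2-K1, Tap1, Tap2, Psmb8, Psmb9 and Nlrc5 values of its group, limma passed 5 in SP (H2-K1, Tap1, Psmb8, Psmb9 and Nlrc5), while the number of all genes past the threshold went from 12 to 1884 (16.4%). The median of the 10 genes in SP was 0.87 without this library, but H2-D1 went from 0.26 to 0.057. Without this library and Δβ replicate 3 of both organs, a choice made after the values were seen, limma passed 6 of the 10 in SP (8.66% of all tested genes), 5 in BM (0.383%) and 1, H2-D1, for SP against BM in WT (4.27%). A choice of libraries made on these values is not independent of them, and the counts with all 12 libraries stand as the result.

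**Figure D5:**
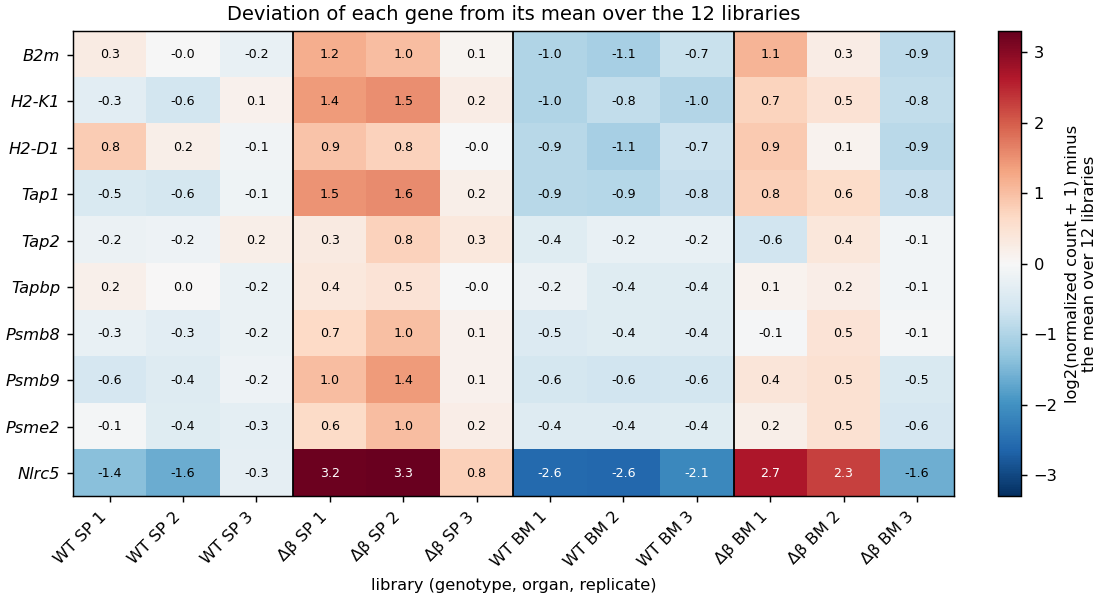
Deviation of each of the 10 genes (rows) from its mean over the 12 libraries (columns), on the log2(normalized count + 1) scale, red above and blue below the mean. Δβ replicates 1 and 2 are mostly red, WT BM is blue throughout, and replicate 3 of Δβ is near 0 in SP except for Nlrc5 and blue in BM.

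The libraries were then compared between organs. All 10 genes were higher on average in SP than in BM in both genotypes, beside 50% of all tested genes in WT and 50.4% in Δβ, with a median log2 difference of 0.39 in WT and 0.59 in Δβ. In WT 9 of the 10 did not overlap between organs (all but Tapbp), beside 5.66% of tested genes, and in Δβ none was without overlap, beside 2.92%. Compared within equal replicate numbers, which go together in Δβ by their correlation, all 10 genes were higher in SP in all 3 Δβ pairs, beside 15.7% of tested genes. In WT, where equal numbers did not go together, all 10 were also higher in SP in all 3, beside 11%. For the 9 genes without overlap in WT any pairing gives this, so the WT count adds only Tapbp. The limma fit gave the 4 groups 1 shared spread per gene, so each organ comparison was scaled by the libraries of both genotypes. For Tap1 the log2 SD was 0.24 in WT SP and 0.098 in WT BM, against 0.76 in Δβ SP and 0.84 in Δβ BM. Without a block, H2-D1 had the only unadjusted p under 0.05 from limma in WT (log2 difference 1.21, SE 0.41, adjusted p = 0.580, beside 4.36% of tested genes higher at that threshold). In Δβ 5 genes had one (H2-K1, Tap2, Psmb8, Psmb9 and Psme2, beside 0.654%), with limma adjusted p = 1.0, and 8 had one with the replicate number as a block (all but H2-D1 and Tapbp, beside 1.34%), of which none passed after adjustment. With the same block 6 genes had one in WT (B2m, H2-K1, H2-D1, Tap1, Tapbp and Nlrc5, beside 4.78%). After adjustment limma and edgeR passed no gene at all (0%) in either organ comparison, and DESeq2 passed 0 of the 10, beside 0.967% of tested genes in WT and 0.0174% in Δβ. The group means fell in the order Δβ SP, Δβ BM, WT SP, WT BM for 9 of the 10 genes, and H2-D1 alone had WT SP above Δβ BM. The libraries of Δβ SP and Δβ BM overlapped for all 10 genes, and those of Δβ BM and WT SP for all but Psmb8. The shares of all tested genes with this order, or without overlap between Δβ BM and WT SP, were not computed. These counts therefore only describe the 10 genes.

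The difference between the genotype effects in SP and BM, tested as an interaction, passed for 0 of the 10 genes by limma (0% of tested genes), edgeR (0%) and DESeq2 (0.0261%). None of the 10 reached an unadjusted p under 0.05 in limma, beside 1.25% of tested genes higher and 1.95% lower. The estimates ran from -0.68 for H2-D1 (SE 0.58) to 0.51 for Psmb9 (SE 0.45) on the log2 scale, with SEs of 0.21 for Tapbp to 1.42 for Nlrc5. The limma fit took the 12 libraries as separate units and left the pairing of Δβ SP and BM libraries unused. Its SEs thus include the spread between replicates. In this form it could detect only a large difference between the organs, and an interaction fit with these pairs was not run.

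Markers of other cells were read beside these values, since dendritic cells and macrophages express class I and immunoproteasome genes at a high level. Of 9 dendritic cell markers 5 passed the filter, and the summed level of the list in SP was 769 to 3151 normalized counts for WT and 363 to 1735 for Δβ, and in BM 90.1 to 674 and 76.6 to 609. Of 10 macrophage markers 3 passed (Vcam1, Hmox1 and Axl), and the sums were 1269 to 4834 (WT) and 1002 to 2584 (Δβ) in SP, and 3552 to 5986 (WT) and 1392 to 2378 (Δβ) in BM. Cd5l had at most 2 reads in any library, and the C1q genes had at most 5 reads each outside WT SP replicate 1, which had 13 of C1qa and 27 of C1qb. The genotypes overlapped in both sums, except for the macrophage sum in BM, where WT was above Δβ. In Δβ BM the dendritic cell sum was 508, 609 and 76.6 in replicates 1, 2 and 3, lowest in the replicate in which the 10 genes were lowest, and in Δβ SP it was 388, 1735 and 363. In Δβ BM 3 class II genes that interferon also induces, Cd74, H2-Aa and H2-Ab1, made 417, 543 and 24.9 of this sum, and the other 6 markers summed to 90.2, 65.4 and 51.8. In Δβ SP the class II part was 314, 1594 and 268 and the other part 73.6, 141 and 95.0. The class II part in WT was 1470, 409 and 1284 in SP and 555, 52.9 and 131 in BM. The other part in WT was 1681, 360 and 177 in SP and 119, 37.2 and 84.6 in BM. In WT the dendritic cell sum was higher in SP than in BM, as the 10 genes were. Its part in these differences was not tested. In such sorted bulk samples fewer cells of a type and less RNA per cell cannot be told apart. Of 21 interferon genes in the table, 20 had at most 2 reads in any library. The exception, Ifng, had 10 reads in Δβ BM replicate 1, the library with the most Cd3e and Cd3g reads, at most 4 in Δβ SP and at most 1 in WT. In Δβ replicate 2, where 9 of the 10 genes in SP and all 10 in BM were above WT, Cd3e and Cd3g had at most 1 read. Without Δβ replicate 1 all 10 genes kept a log2 fold change above 0, with a median of 0.86 in SP and 0.62 in BM, and the part of T cells in these differences was not tested.

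Other genes of the pathway were read as lists. Of 19 further class I heavy chain and class I-like genes 9 were tested, and 7 of these were higher in Δβ over both organs, at a median of 0.39 on the log2 scale, and 0 were past limma's adjusted p of 0.05. H2-Q4, H2-T10 and H2-M3, non-classical heavy chain genes, had log2 fold changes of 1.80 (SE 0.48), 1.66 (SE 0.38) and 1.62 (SE 0.67). DESeq2 gave them adjusted p-values of 0.000496, 0.00238 and 0.00407 over both organs. The RefSeq entry of the H2-T10 row is a non-coding transcript. H2-Q4 had 107, 150.5 and 299 normalized counts in WT SP and 1019, 1152 and 373 in Δβ SP, with the same fall-off in replicate 3. The other 10 heavy chain genes were below the filter, and H2-Q6, H2-Q7 and H2-L were listed at 0 in all 12 libraries. H2-Q6 and H2-Q7 share 50-base stretches with H2-D1, and H2-L has no position in GENCODE M21. How shared reads were counted is not given in the sources used here, so a listed 0 does not show that the RNA was absent. The share of such stretches was not computed for the genes of this list.

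Of 12 loading and trimming genes 11 were tested, of which 9 were higher over both organs at a median log2 difference of 0.18 and with 0 past the limma threshold. This list holds the chaperones Calr, Canx and Pdia3 and the aminopeptidase Erap1. Its largest differences were in Tapbpl, a tapasin-related peptide editor (0.68, SE 0.15, adjusted p = 0.222 from limma and 0.00119 from DESeq2), in the aminopeptidase Lap3 (0.52, SE 0.20) and in the oligopeptidase Thop1 (0.34, SE 0.24). All 6 further proteasome genes were tested, and 5 were higher, with a median of 0.18 and 0 past the threshold. Psmb10 had a log2 fold change of 0.71 (SE 0.23, limma adjusted p = 0.402, DESeq2 adjusted p = 0.0361), Psme1, the α chain of PA28, of 0.42 (SE 0.17) and Psme2b of 0.30 (SE 0.37).

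Of 15 regulators of class I transcription, all tested, 9 were higher over both organs at a median log2 difference of 0.07 and with 0 past the limma threshold. Irf1, an interferon-induced activator of class I genes, had a log2 fold change over both organs of 0.95 (SE 0.36, limma adjusted p = 0.464, DESeq2 adjusted p = 0.0411) and Irf9, the DNA-binding part of the type I interferon complex, of 0.57 (SE 0.32).

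Across the 12 libraries the 10 genes varied together to different degrees. Pearson's r of a gene with the mean of the other 9 was highest for Tap1 (0.990) and lowest for Tap2 (0.599), and after removal of the group means it was 0.984 and 0.0675. The tested genes outside the 10 whose log2 profile was most like the mean profile were Serpina3f (r = 0.971), H2-Q5 (0.971), Gbp7 (0.966), Gbp2 (0.965), Gbp5 (0.963), Tgtp2 (0.960), H2-M3 (0.958) and Serpina3g (0.957). In all, 38 tested genes (0.331%) had an r above 0.9. The libraries share genotype, organ and the replicate 3 pattern, so these correlations describe the 12 libraries and carry no test.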

How the data were processed

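RNA of Venus-sorted blasts was measured in 12 libraries, 3 per genotype and organ, and libraries were grouped by their labels. The authors deposited 1 signal value per gene and library, a gene count divided by a size factor (normalized count). The submitters' processing notes name FastQC, STAR, featureCounts and DESeq2 and the builds GRCm38 and mm10. Versions, strand setting and the treatment of reads with several matches are not given in the sources used here. The header of the table lacks 1 tab, between the last gene identifier and the first column of values, and with it restored every name falls on 1 column. The table holds 6 further columns of values that match no sample label, which were not used. Every value was a whole multiple of 1 read (tolerance 1e-06, 100% of values), and the reads so recovered, 9001051 to 13859727 per library, served only for edgeR and DESeq2. A floor of 3 reads covers counting error only.

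The main test was limma 3.58.1 (R 4.3.3; lmFit, eBayes with trend) on log2(normalized count + 1), which understates fold changes of low genes, applied to 11476 genes (mean of 10 or more), with 4 group means and Benjamini-Hochberg adjustment over all tested genes. The 4 groups shared 1 spread per gene, so an SE or p-value within 1 organ or genotype also reflects the other libraries. Over both organs, 3 values per genotype were compared, each the average of the SP and BM log2 values that share a replicate number. Ratios were tested by two-sided exact permutation. Alternatives were edgeR 4.0.16 (quasi-likelihood), DESeq2 1.42.0, pseudocounts of 0.25 and 4, no filter, a minimum mean of 50, TMM scaling, quantile normalization, eBayes without trend, a replicate block, separate fits and libraries left out. Deviations from the group means correlated between equally numbered SP and BM libraries of Δβ (0.61 to 0.66), which were therefore taken as paired by the data, not by a label, and not in WT (-0.24 to -0.01). The procedure was tested on simulated data.

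The 10 genes and all lists were chosen with earlier results of these data known. Named genes are the 10, per list the tested genes past the threshold or otherwise the 3 with the largest difference over both organs, the genes Psmb10, Psme1, Psmb5, Psmb6, Psmb7 and Irf1, the 8 with the most similar profile, and genes of the marker lists; 1 further gene of the rule is not reported here. The gene Nrdc was on the trimming list but matched no row of the table. Positions are from GENCODE M21 (GRCm38) and promoter windows from RefSeq (GRCm38.p6), with 8 of the 10 genes matched.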

Additional observations from a re-analysis of the deposited data

How the results depend on the processing

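With 3 libraries per group, limma passed 0 of the 10 genes in each of the 6 comparisons, also with pseudocounts of 0.25 and 4, no filter, a minimum mean of 50, TMM scaling, quantile normalization, eBayes without trend, edgeR or, in the 4 comparisons within an organ or genotype, its 6 libraries alone. DESeq2 passed 6 in SP, 1 in BM and 7 over both organs. Leaving out Δβ replicate 3 of both organs gave 4 in SP and 4 in BM, with 23 and 26 genes in all. Leaving out WT SP replicate 3 as well, a choice made after seeing the data, gave 6 in SP, 5 in BM and 1 for SP against BM in WT, with 994, 44 and 490 genes in all. With single libraries left out (over both organs, the average of an SP and a BM library) the count ran from 0 to 5 in SP (5 without WT SP replicate 3) and from 0 to 4 over both organs (4 without Δβ replicate 3), and was 0 in the other comparisons. The cause of these differences was not tested. Over all genes, limma passed 12 in SP, 8 in BM and 17 over both organs, against 457, 37 and 422 with DESeq2; in SP the count was 1 with a pseudocount of 0.25 and 1884 without WT SP replicate 3. The direction of Tap2 in BM turned to -0.062 without Δβ BM replicate 2 (range -0.062 to 0.44), and that of Nlrc5 for SP against BM in Δβ to -0.031 without Δβ BM replicate 3 (range -0.031 to 2.15). On 1 strand alone the response element core was in 1.74% of windows. In the other 191 alternatives of the counts and ratios, the counts stayed at 0 and the ratios kept their direction. No p-value was computed for the alternatives of the ratios.

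The replicate block passed 0 of the 10 in every comparison, with 2, 5 and 55 genes in all past the threshold in SP, BM and over both organs. Deviations from the group means of WT and Δβ libraries with the same number correlated at -0.17 to 0.20, so WT and Δβ share only a number. In Δβ, where SP and BM were paired, the block changed no call after adjustment for SP against BM.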
